A study of Mus musculus with 12 samples.

Results

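Gene expression in the medial prefrontal cortex (mPFC) was compared between BTBR mice given astragaloside IV (BTBR ASIV) and C57 mice given the DMSO solvent (C57 DMSO). The comparison asks how far the treated model strain still lies from the untreated common strain. The series is a sequencing study of total RNA from mouse mPFC with 12 libraries in 4 groups of 3, and the 6 libraries of these 2 groups are compared here. BTBR, an inbred strain, serves as an autism model, C57 is labelled wild type, and astragaloside IV is a saponin of Astragalus root. Drug or solvent was given by intraperitoneal injection for 7 days, and the labels state no dose, age or sex. The other 2 groups, BTBR mice given DMSO (BTBR DMSO) and C57 mice given astragaloside IV (C57 ASIV), enter the estimate of the spread and are quoted beside single genes. BTBR ASIV and C57 DMSO differ in both strain and drug, so in this contrast the effects of strain and of drug cannot be told apart. The deposited table lists 17283 genes, and the 13586 whose FPKM was 1 or higher in no fewer than 3 of the 12 libraries were tested. FPKM are fragment counts divided by gene length and library size.

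The mPFC is a frontal area whose layered excitatory neurons and inhibitory interneurons take part in social behaviour and in the control of repetitive actions. BTBR mice lack the corpus callosum and show low sociability and marked self-grooming. The series title names CAMK2N2, an inhibitor protein of the calcium/calmodulin-dependent kinase CaMKII, together with oxidative phosphorylation and neurotransmission. Oxidative phosphorylation is the work of respiratory complexes whose subunits come from both the nuclear and the mitochondrial genome.

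The depth recovered from the FPKM steps was 18103183 to 18495487 fragments in the BTBR ASIV libraries and 16257019 to 18660038 in the C57 DMSO libraries. Replicates within each of the 4 groups correlated at r = 0.971 to 0.992 across genes on the log2 scale. The mean variance per gene was 0.05 in BTBR ASIV and 0.0226 in C57 DMSO. On the second principal component (13.9% of the variance) BTBR ASIV replicate 2 stood at -7.8, and replicates 1 and 3 at -24 and -23.4. The labels number the libraries of a group as parallel samples and do not say that they came from separate animals, so that p-values measure the spread between these samples, which may be technical. In bulk tissue, fewer cells of a type and less RNA per cell cannot be told apart.

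Of the 13586 genes, 296 were called at an adjusted p under 0.05 (limma on log2(FPKM + 1), Benjamini-Hochberg adjustment), which is 2.18% of the genes tested. In BTBR ASIV 128 of them were higher (0.942%) and 168 were lower (1.24%). After every library was scaled to the same sum (TPM), the split was 191 higher and 112 lower. At least a 2-fold change of FPKM + 1 was reached by 70 called genes (0.515%), 42 higher and 28 lower. The 3 libraries of one group lay wholly above or below those of the other for all 296 called genes, and for 4019 genes tested (29.6%). The 95% interval of the log2 difference lay within a 1.5-fold change either way for 10357 genes (76.2%). For 556 genes that were not called the interval reached 2-fold. The median log2 difference of all genes was 0.0029 and the median standard error 0.123. The number called depended on the libraries used. It was 99 without C57 DMSO replicate 1, 116 without replicate 2 and 149 without replicate 3, and 164 without BTBR ASIV replicate 1 and 132 without replicate 3. Without BTBR ASIV replicate 2 it was 394. When array weights let the groups differ in spread, 885 genes were called, and 695 when the BTBR DMSO libraries were left out of the fit.

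**Figure D1:**
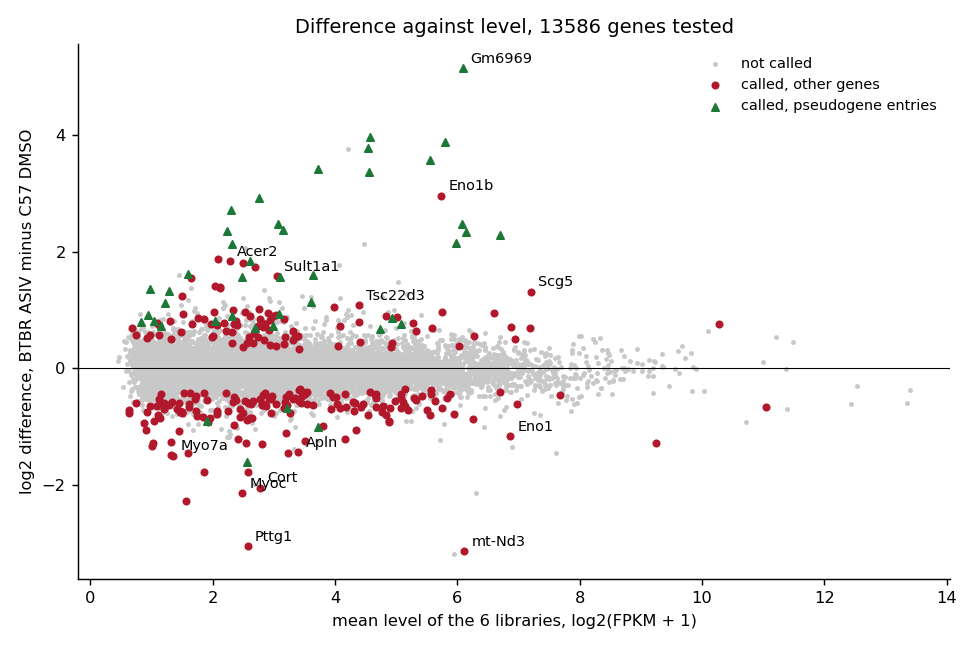
Each point is a gene, with log2(FPKM + 1) of its mean FPKM over the 6 libraries on the x axis and the log2 difference, BTBR ASIV minus C57 DMSO, on the y axis. Grey points were not called, red points are called genes and green triangles are called pseudogene entries, of which 38 were higher and 4 lower.

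The 15 called protein-coding genes of the nuclear genome with the largest rises, Gm and Rik symbols left out, had log2 differences of 1.01 to 2.96. Acer2, an alkaline ceramidase of the Golgi (chromosome 4, 86874396 to 86934822, mm10), had 4.53, 5.30 and 10.1 FPKM in BTBR ASIV, against 0.779, 1.15 and 1.21 FPKM in C57 DMSO. Its log2 difference was 1.84 ± 0.25 (SE, adjusted p = 0.00225). The groups did not overlap, and Acer2 stood at 2.96 ± 0.967 FPKM in BTBR DMSO and 1.60 ± 0.521 in C57 ASIV (SD, n = 3 each). Scg5, which encodes the chaperone 7B2 of prohormone convertase 2 (chromosome 2, 113776362 to 113829121), had 205, 226 and 198 FPKM in BTBR ASIV, against 85.7, 79.0 and 86.4 FPKM in C57 DMSO. The log2 difference of Scg5 was 1.31 ± 0.14 (adjusted p = 0.000223), and BTBR DMSO libraries were also high at 176.5 ± 33.2 FPKM. Pla2g4e, a cytosolic phospholipase A2, had 6.46, 4.44 and 5.09 FPKM in BTBR ASIV, against 1.56, 1.33 and 1.33 FPKM in C57 DMSO (log2 difference 1.38 ± 0.18, adjusted p = 0.00146).

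Mfsd2a, the carrier of lysophosphatidylcholine lipids at the blood-brain barrier, showed another pattern over the 4 groups. It had 20.9, 18.6 and 21.5 FPKM in BTBR ASIV, against 9.07, 9.19 and 9.73 FPKM in C57 DMSO. BTBR DMSO libraries averaged 9.44 ± 3.20 FPKM and C57 ASIV libraries 8.32 ± 1.43. The log2 difference of Mfsd2a was 1.04 ± 0.19 (adjusted p = 0.0136), and the BTBR ASIV libraries were the highest of the 12. Hif3a, a hypoxia-inducible factor subunit, had 4.59, 1.97 and 2.43 FPKM in BTBR ASIV, against 0.439, 0.879 and 0.605 FPKM in C57 DMSO (log2 difference 1.24 ± 0.26, adjusted p = 0.0331). Etnppl, an enzyme of phosphoethanolamine breakdown found in astrocytes, had a log2 difference of 1.74 ± 0.35, and Igfbpl1, an IGF-binding protein-like gene of immature neurons, one of 1.41 ± 0.24. Mroh7 stood at 1.55 ± 0.26 and Ccl17, a chemokine, at 1.39 ± 0.30. Sult1a1 (1.58 ± 0.29), Tsc22d3 (1.08 ± 0.17) and Pdk4 (1.01 ± 0.21), among the same 15 largest rises, are described further on, as are the gene copies Eno1b, Amd2 and Eif3j2. Acer2, Scg5 and Pla2g4e were called under every setting tried. The calls of Etnppl and Hif3a were also lost with voom (adjusted p = 0.0710 and 0.0681), and that of Ccl17 with a pseudocount of 0.1 and with only the 6 libraries. Leaving out 1 library ended the calls of Etnppl, Hif3a, Ccl17, Mfsd2a, Igfbpl1 and Mroh7, with adjusted p of up to 0.145, 0.154, 0.158, 0.0706, 0.0672 and 0.0509 in that order. That highest value came without C57 DMSO replicate 1 in each case but Ccl17, where it came without replicate 2.

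Among nuclear protein-coding genes the largest falls were those of Pttg1, Myoc and Cort. Pttg1, the securin that keeps separase from cutting the cohesin between sister chromatids (chromosome 11, 43420250 to 43426251), had 0.326, 0.221 and 0.324 FPKM in BTBR ASIV, against 9.43, 8.79 and 10.7 FPKM in C57 DMSO. Its log2 difference was -3.04 ± 0.12 (adjusted p = 1.95e-08), and the strain divided all 12 libraries, with 0.646 ± 0.242 FPKM in BTBR DMSO and 10.6 ± 0.983 in C57 ASIV. Cort, the peptide cortistatin of a subset of inhibitory interneurons (chromosome 4, 149125034 to 149126763), had 1.202, 1.63 and 2.08 FPKM in BTBR ASIV, against 12.1, 11.8 and 6.45 FPKM in C57 DMSO. The log2 difference of Cort was -2.04 ± 0.25 (adjusted p = 0.00107). Myoc, the secreted glycoprotein myocilin, had 1.57, 0.559 and 1.10 FPKM in BTBR ASIV, against 5.40, 9.68 and 9.31 FPKM in C57 DMSO (log2 difference -2.13 ± 0.29, adjusted p = 0.00236). The groups did not overlap for any of the 3 genes.

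Apln, the peptide apelin that acts on vessels and neurons (chromosome X, 48025146 to 48034853), was lowest in BTBR ASIV and highest in C57 DMSO. Its libraries had 3.64, 4.84 and 5.80 FPKM in BTBR ASIV, against 13.8, 13.8 and 15.4 FPKM in C57 DMSO. BTBR DMSO (8.10 ± 1.96) and C57 ASIV (10.2 ± 0.319) lay between, and the log2 difference of Apln was -1.43 ± 0.16 (adjusted p = 0.000316). Ddit4l, a stress-responsive inhibitor of mTOR signalling, had the same order of group means, with a log2 difference of -1.28 ± 0.16. Nudt19, a peroxisomal CoA diphosphatase, had 8.42, 9.83 and 11.4 FPKM in BTBR ASIV, against 22.996, 24.2 and 24.7 FPKM in C57 DMSO (log2 difference -1.21 ± 0.10, adjusted p = 1.46e-05), but 938 bases of its exons are shared with B230322F03Rik on the opposite strand. Myo7a, an unconventional myosin (-1.49 ± 0.12), Gkn3, a gastrokine expressed in arterial endothelium (-1.44 ± 0.24), and Cpne9, a copine (-1.2013 ± 0.19), were also lower. Krt12, a keratin, had a log2 difference of -1.48 ± 0.13, but 54.4% of its exon length overlaps A830036E02Rik on the opposite strand, which stood at -2.26. The strand of counting is not given, so the reads of such pairs cannot be told apart. Each single-copy gene named in this and the previous paragraph was called under every setting tried.

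**Figure D2:**
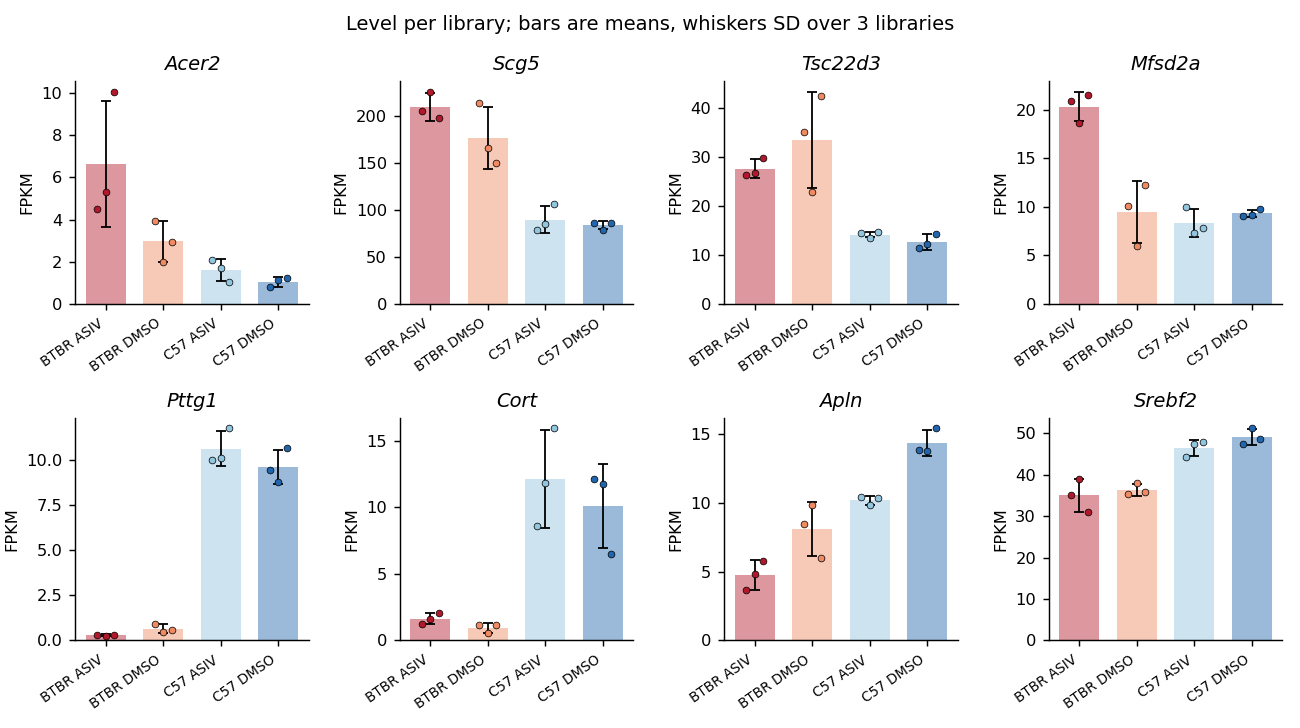
FPKM of 8 genes per library (points), with the group mean (bar) and SD over 3 libraries (whisker), in the order BTBR ASIV, BTBR DMSO, C57 ASIV and C57 DMSO. In each of the 8 panels the BTBR ASIV points lie wholly above or wholly below the C57 DMSO points, and Mfsd2a is the panel in which BTBR DMSO averages close to both C57 groups.

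A separate set of large differences concerned genes with near-identical copies elsewhere in the genome. Many pseudogenes are such copies, made when a spliced mRNA was written back into DNA. Reads from stretches that are the same in the gene and its copy cannot be told apart. Of 600 pseudogene entries tested, 42 were called (7.0%, beside 2.18% of all genes), 38 higher and 4 lower in BTBR ASIV. A protein-coding transcript matched 528 of the 600 at 90% identity or more over at least 50% of the copy. Of the 37 higher entries whose closest gene was tested, that gene had a log2 difference below 0 for 28 and was called lower for 8 and higher for 2. The alignment was made to mm10, per the submitters' processing notes, which is a C57BL/6J assembly. The pairs below show bases that separate a gene from its copy. Each line gives the 120 bases of the coding strand with the most differences, and capitals mark the bases that differ within the pair. Sequences are from GENCODE M21 transcripts.
mt-Nd3 (mitochondrial genome, 9459 to 9806): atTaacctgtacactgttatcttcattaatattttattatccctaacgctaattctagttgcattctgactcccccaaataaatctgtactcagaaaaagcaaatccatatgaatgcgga
Gm28438 (chromosome 1, 24612775 to 24613119): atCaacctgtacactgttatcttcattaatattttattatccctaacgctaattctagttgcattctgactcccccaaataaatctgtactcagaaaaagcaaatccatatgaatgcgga
Eno1 (chromosome 4, 150236721 to 150248879): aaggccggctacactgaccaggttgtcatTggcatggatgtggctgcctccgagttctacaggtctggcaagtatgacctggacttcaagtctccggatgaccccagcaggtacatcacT
Gm4735 (chromosome 2, 80837141 to 80838442): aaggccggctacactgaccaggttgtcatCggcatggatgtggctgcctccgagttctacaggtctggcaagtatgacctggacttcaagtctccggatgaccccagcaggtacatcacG
Odc1 (chromosome 12, 17544794 to 17551505): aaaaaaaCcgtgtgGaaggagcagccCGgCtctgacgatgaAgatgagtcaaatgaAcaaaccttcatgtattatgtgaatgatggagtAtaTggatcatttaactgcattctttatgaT
Gm7993 (chromosome 5, 95974240 to 95975623): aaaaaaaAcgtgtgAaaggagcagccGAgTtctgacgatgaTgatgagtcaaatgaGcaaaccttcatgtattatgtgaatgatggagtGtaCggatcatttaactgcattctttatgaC

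Over the coding bases compared, mt-Nd3 and Gm28438 differ at 1 of 345, Eno1 and Gm4735 at 5 of 1302, and Odc1 and Gm7993 at 31 of 1366. mt-Nd3, a subunit of complex I, had 12.007, 11.7 and 16.003 FPKM in BTBR ASIV, against 131.8, 135.4 and 103.0 FPKM in C57 DMSO. Its copy Gm28438 had 87.0, 119.9 and 132.4 FPKM in BTBR ASIV, against 18.8, 21.2 and 17.8 FPKM in C57 DMSO. The fragments of the pair together, scaled to library size as CPM, came to 43.6 CPM in BTBR ASIV and 49.6 CPM in C57 DMSO, so that the copy held 89.3% of the pair in BTBR ASIV and 13.5% in C57 DMSO.

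Enolase showed the same opposition. Eno1, a glycolytic enzyme, had 69.3, 74.7 and 69.5 FPKM in BTBR ASIV, against 167.1, 157.9 and 154.9 FPKM in C57 DMSO (log2 difference -1.16 ± 0.09, adjusted p = 1.42e-05). The copy Eno1b on chromosome 18 had 88.3, 96.8 and 94.3 FPKM in BTBR ASIV, against 12.02, 10.3 and 11.1 FPKM in C57 DMSO (log2 difference 2.96 ± 0.11, adjusted p = 1.95e-08), and Gm4735 stood at 3.87 ± 0.21. Gene and copies summed, enolase came to 695.1 CPM in BTBR ASIV and 889.6 CPM in C57 DMSO, and the log2 difference of the sum was -0.36 (voom on recovered fragments, adjusted p = 0.0681). Odc1, the first enzyme of polyamine synthesis, was called lower (-0.70 ± 0.12, adjusted p = 0.0105) and Gm7993 higher (2.91 ± 0.13), and their family sum stood at -0.26 (adjusted p = 0.282). The largest rise of all belonged to Gm6969, a copy 98.0% identical to Cox7a2l, with 136.5, 112.4 and 145.9 FPKM in BTBR ASIV, against 3.13, 3.56 and 1.80 FPKM in C57 DMSO (5.14 ± 0.20, adjusted p = 2.84e-08), while Cox7a2l stood at -0.13 (adjusted p = 0.598). Psenen, a subunit of gamma-secretase, was called lower (-1.05 ± 0.13, adjusted p = 0.00063), its copy Gm12396 of the same sequence was called higher (3.96 ± 0.32), and the sum stood at -0.25 (adjusted p = 0.208).

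Summing changed many of these calls, but not all. Of 37 families with a called copy, voom called the closest gene alone in 10 (1 higher, 9 lower) and the family sum in 5 (2 higher, 3 lower). Acp1, a low molecular weight phosphatase, had 4.23, 4.06 and 3.88 FPKM in BTBR ASIV, against 12.8, 12.4 and 13.1 FPKM in C57 DMSO. The Acp1 family sum was 16.6 to 19.2 CPM in BTBR ASIV, against 46.4 to 50.4 CPM in C57 DMSO, with a log2 difference of -1.43 (adjusted p = 9.73e-06). The sums of Rbpj, the DNA-binding partner of Notch (-0.75, adjusted p = 0.00418), and of Mrpl48 were the other lower ones. For Hnrnpa3, an RNA-binding protein, and Ublcp1, a phosphatase of the proteasome, no copy was called, and both were called lower as sums (-0.96, adjusted p = 0.00339, and -0.78, adjusted p = 0.0400). For Eif3j1 and Eif3j2, 2 genes for a translation initiation subunit, Eif3j1 was called lower (-0.78 ± 0.17), Eif3j2 higher (1.81 ± 0.32), and the sum stood at 0.10 (adjusted p = 0.688). Leaving out any 1 library ended the Eif3j1 call (adjusted p up to 0.136, without BTBR ASIV replicate 3), and leaving out C57 DMSO replicate 2 that of Odc1 (0.0635). Without C57 DMSO replicate 1 the Eif3j2 and Hnrnpa3 calls were lost at 0.0739 and 0.0743. Amd2, a copy of the polyamine gene Amd1, was called higher alone (1.87 ± 0.16), and its sum with Amd1 stood at 0.23 (adjusted p = 0.319). Without the gene copies and their closest genes, 229 genes were called, 79 higher and 150 lower, and 33 of them by at least 2-fold.

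**Figure D3:**
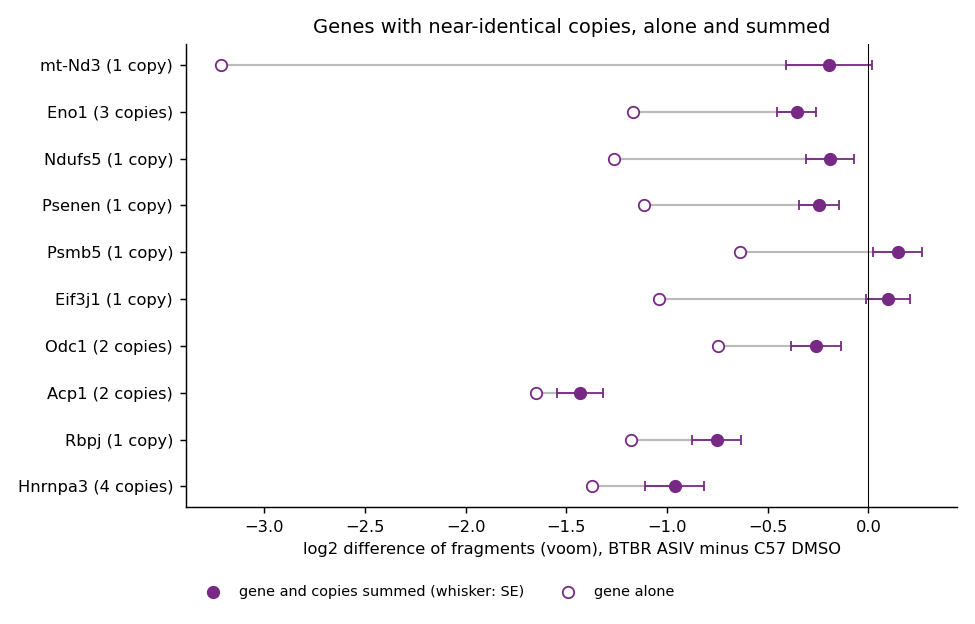
Log2 difference of fragments (voom), BTBR ASIV minus C57 DMSO, for 10 genes alone (open circles) and summed with their near-identical copies (filled circles, whiskers SE). mt-Nd3 stood at -3.22 alone and at -0.20 summed with its copy, and Acp1 at -1.65 alone and -1.43 summed.

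The 13 mRNAs of the mitochondrial genome, core subunits of complexes I, III and IV and of ATP synthase, made up 9.49, 8.84 and 9.57% of all FPKM in the BTBR ASIV libraries, against 12.9, 12.1 and 13.2% in the C57 DMSO libraries. The groups did not overlap (9.30 ± 0.402 against 12.7 ± 0.549%, SD, n = 3 each; exact two-sided permutation test, p = 0.1, the smallest that 3 against 3 libraries allow). BTBR DMSO libraries held 1.42 ± 0.533% and C57 ASIV libraries 11.4 ± 1.88%. All 13 log2 differences were below 0, with a median of -0.66, beside 0.0029 for all genes. Of the 13, mt-Nd3 (above) and mt-Nd5 were called, where 1.24% of all genes were called lower. The mt-Nd3 call was lost once its copy Gm28438 was added, with the sum at -0.20 (voom, adjusted p = 0.67). mt-Nd5, a complex I subunit, had 1644, 1500 and 1761 FPKM in BTBR ASIV, against 2635, 2442 and 2684 FPKM in C57 DMSO (log2 difference -0.66 ± 0.15, adjusted p = 0.0358). The mt-Nd5 call was lost when any 1 of the 6 libraries was left out (adjusted p up to 0.154, without C57 DMSO replicate 1) and under quantile normalization (0.0644).

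The other mitochondrial mRNAs were not called. mt-Nd4, in complex I, had 1222, 1080 and 1186 FPKM in BTBR ASIV, against 2281, 2106 and 2199 FPKM in C57 DMSO (log2 difference -0.92 ± 0.27, adjusted p = 0.104). mt-Co1, the catalytic subunit of complex IV, had 8136, 8252 and 8524 FPKM in BTBR ASIV, against 11892, 12353 and 13439 FPKM in C57 DMSO (-0.60 ± 0.24, adjusted p = 0.220). The groups did not overlap for either gene, and their standard errors came from a fit that includes the BTBR DMSO and C57 ASIV libraries. mt-Cytb of complex III stood at -0.60 ± 0.27, mt-Nd2 at -0.69 ± 0.22 and mt-Nd1 at -0.31 ± 0.28. mt-Nd6, whose gene lies on the other strand and shares 14 exon bases with mt-Nd5, stood at -0.01 ± 0.18. mt-Co2, mt-Co3, mt-Atp6, mt-Atp8 and mt-Nd4l averaged 7.75 to 147.5 FPKM in BTBR ASIV, against 14.7 to 146.0 in C57 DMSO, with standard errors of 0.31 to 0.85. For mt-Co2, mt-Co3, mt-Atp6, mt-Nd4 and mt-Nd4l, copies on chromosome 1 with 100% identity over the copy were tested and not called, such as Gm28661 of mt-Co2, which averaged 93.7 FPKM in BTBR ASIV and 108.5 in C57 DMSO.

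**Figure D4:**
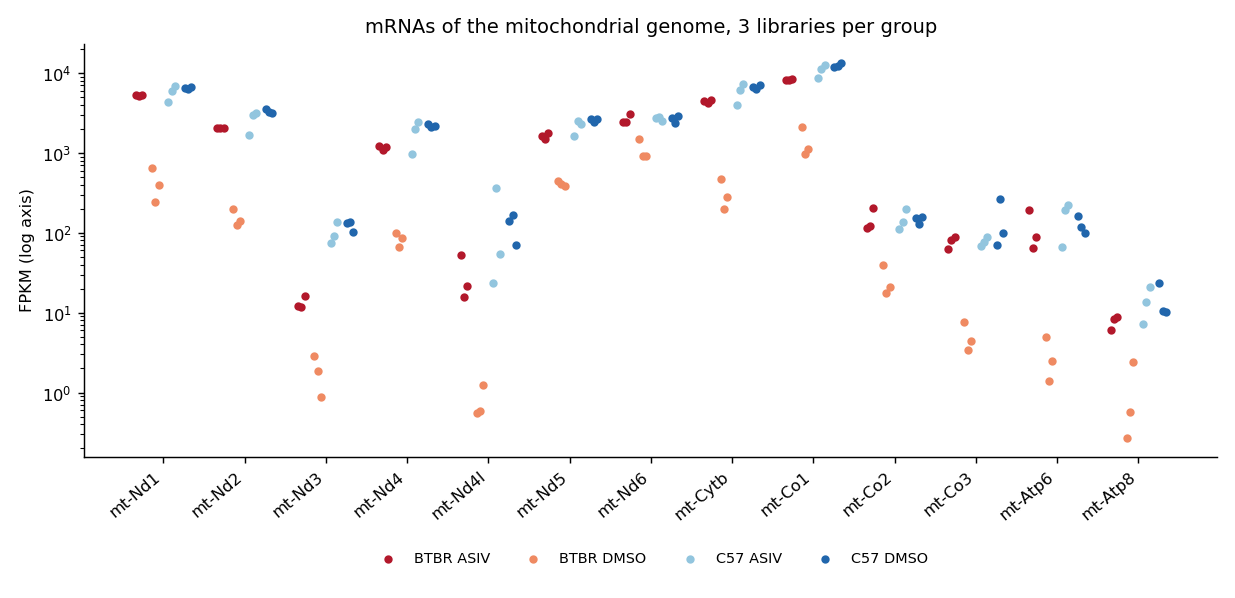
FPKM (log axis) of the 13 mRNAs of the mitochondrial genome, with 1 point per library in the order BTBR ASIV, BTBR DMSO, C57 ASIV and C57 DMSO. The BTBR ASIV points of mt-Nd4 lie at 1080 to 1222 and its C57 DMSO points at 2106 to 2281. The gap is widest for mt-Nd3, shown without its copy Gm28438, at 11.7 to 16.003 against 103.0 to 135.4.

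Nuclear genes of oxidative phosphorylation showed no call, and at 2.18% of all genes called a count of 0 in such lists is near the background. None of 36 complex I subunits, 14 of complexes II and III, 12 of complex IV and 16 of ATP synthase passed. The groups did not overlap for 18, 5, 4 and 5 of them in that order, and for 29.6% of all genes tested. The list medians were -0.05, 0.00, -0.09 and -0.03. Under TPM scaling the medians were 0.01, 0.06, -0.02 and 0.04, so no direction is given for them. The smallest p in complex I belonged to Ndufa10, a subunit of the membrane arm, with 25.2, 24.4 and 23.9 FPKM in BTBR ASIV, against 33.8, 31.4 and 31.5 FPKM in C57 DMSO (log2 difference -0.38, 95% interval -0.59 to -0.17, adjusted p = 0.0686). Ndufs5, another complex I subunit, had 38.6, 41.7 and 15.7 FPKM in BTBR ASIV, against 71.9, 66.4 and 73.5 FPKM in C57 DMSO, and its copy BC002163 had 62.6, 67.5 and 126.4 FPKM in BTBR ASIV, against 5.21, 6.29 and 6.36 FPKM in C57 DMSO. BC002163 was called (3.57 ± 0.25, adjusted p = 8.58e-06) and Ndufs5 was not (-1.23, interval -1.98 to -0.48), and their sum stood at -0.19 (voom, adjusted p = 0.422). Atp5e, the epsilon subunit of ATP synthase, had 73.7, 74.4 and 85.4 FPKM in BTBR ASIV, against 52.2, 52.1 and 61.0 FPKM in C57 DMSO (0.49, interval 0.21 to 0.77, adjusted p = 0.0759).

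Other mitochondrial and metabolic lists held 3 calls, and at 2.18% of all genes called such a count is near the background. Mrpl48, of 77 mitochondrial ribosomal proteins, was lower (-0.56 ± 0.11, adjusted p = 0.0240), its copy Mrpl48-ps was called higher (1.56 ± 0.31), and their sum was called lower (-0.50, voom, adjusted p = 0.0389). Eno1 was the 1 call among 18 glycolytic entries. Pdk4, the kinase that switches off pyruvate dehydrogenase, was the 1 call among 21 genes of the TCA cycle and pyruvate dehydrogenase, with 7.26, 5.19 and 12.2 FPKM in BTBR ASIV, against 3.11, 3.46 and 3.49 FPKM in C57 DMSO (log2 difference 1.01 ± 0.21, adjusted p = 0.0279). None of 20 genes of mitochondrial transcription and RNA passed, with Gabpa, a transcription factor of nuclear mitochondrial genes, closest at 0.38 ± 0.10 (adjusted p = 0.0604). The calls of Pdk4 and Mrpl48 were lost without single libraries, with adjusted p of up to 0.132 and 0.131, both without C57 DMSO replicate 1, and that of Pdk4 also with only the 6 libraries (0.0729).

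Camk2n2, the inhibitor named in the title, had 144.3, 147.6 and 167.8 FPKM in BTBR ASIV, against 153.9, 162.4 and 174.4 FPKM in C57 DMSO. The groups overlapped, and the log2 difference was -0.10 (95% interval -0.48 to 0.29, adjusted p = 0.822). BTBR DMSO libraries averaged 222.1 ± 69.2 FPKM and C57 ASIV libraries 128.2 ± 19.8. Its relative Camk2n1 stood at -0.01 (interval -0.31 to 0.29). Of the kinase subunits, Camk2a (-0.14, interval -0.39 to 0.11), Camk2b (-0.06, interval -0.27 to 0.15) and Camk2d (-0.04, interval -0.45 to 0.37) were not called. Camk2g had 39.8, 36.7 and 33.4 FPKM in BTBR ASIV, against 47.5, 42.3 and 44.5 FPKM in C57 DMSO (-0.28, interval -0.49 to -0.08, adjusted p = 0.148). None of the 22 genes of CaMKII and calmodulin signalling passed, and at 2.18% of all genes called such a count of 0 is near the background. Their median was -0.07 (0.00 under TPM scaling).

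Lists of genes of transmission at synapses held 0 or 1 call each, where 2.18% of all genes were called. None of 20 genes of GABA signalling passed (median -0.17), with the receptor subunit Gabra5 closest at -0.46 ± 0.12 (adjusted p = 0.0818). Of 28 genes of glutamate signalling Grm3, a metabotropic receptor that lowers transmitter release, was called. Grm3 had 15.8, 17.2 and 16.05 FPKM in BTBR ASIV, against 24.03, 24.3 and 28.3 FPKM in C57 DMSO (log2 difference -0.61 ± 0.14, adjusted p = 0.0418). Of 30 genes of vesicle release Syn1, which tethers vesicles in the terminal, was called, with 181.1, 181.9 and 154.0 FPKM in BTBR ASIV, against 251.3, 233.2 and 221.6 FPKM in C57 DMSO (-0.45 ± 0.11, adjusted p = 0.0495). The vesicle list had a median of -0.25, and 28 of its 30 log2 differences were below 0, where 6860 of 13586 genes stood above 0. None of 26 postsynaptic density genes (median -0.17) and none of 31 genes of monoamine and acetylcholine signalling (median -0.13) passed. The muscarinic receptor Chrm3 stood at -0.63 ± 0.15 (adjusted p = 0.0582). None of 32 autism risk genes passed, with Grin2b, an NMDA receptor subunit, closest at -0.74 ± 0.18 (adjusted p = 0.0509). The calls of Grm3 and Syn1 were lost without any 1 of the 6 libraries (adjusted p up to 0.145 without C57 DMSO replicate 3 for Grm3, and 0.233 without C57 DMSO replicate 1 for Syn1) and under TPM scaling (0.0978 and 0.0850). Both were also lost under scaling without mitochondrial genes and in a fit without trend and robust options, and Syn1 was lost in 14 of 21 alternatives in all, among them quantile normalization, a pseudocount of 0.1 and no filter.

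Voltage-gated channels and cytoskeletal genes of axons had the lowest medians of the neuronal lists. Of 32 channel genes 3 were lower and none higher, where 1.24% of all genes were called lower, and the median was -0.29. Kcnc1, a potassium channel of fast-spiking interneurons, stood at a log2 difference of -0.44 ± 0.09 (adjusted p = 0.0269), and Scn8a, a sodium channel of the axon initial segment, at -0.57 ± 0.12 (adjusted p = 0.0348). Of 20 stathmins, tubulins and related genes 2 were lower, with a median of -0.32. Map1a, a microtubule-associated protein, had 98.8, 103.5 and 94.2 FPKM in BTBR ASIV, against 156.3, 153.6 and 146.3 FPKM in C57 DMSO (-0.62 ± 0.11, adjusted p = 0.0105). Nefl, the light neurofilament chain, stood at -0.78 ± 0.15 (adjusted p = 0.0192), and 32.8% of its exon length overlaps its neighbour Nefm on the opposite strand. Over the scalings tried the channel median ran from -0.29 to -0.23 and the cytoskeletal one from -0.32 to -0.25. The calls of Kcnc1, Scn8a, Map1a and Nefl were lost without single libraries, with adjusted p of up to 0.140 for Kcnc1, 0.172 for Scn8a, 0.0672 for Map1a and 0.0990 for Nefl. The highest value came without C57 DMSO replicate 1, or for Kcnc1 without replicate 2. Kcnc1 (0.0860), Scn8a (0.0871) and Map1a (0.0508) also missed the threshold under TPM scaling, and Scn8a under scaling without mitochondrial genes.

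Genes that respond to glucocorticoids, the adrenal stress hormones, were higher in part. Of 12 genes 3 were called higher and none lower, 10 had log2 differences above 0, and the median was 0.74 (0.73 to 0.80 over the scalings), beside 0.0029 for all genes. Of all 13586 genes 0.942% were called higher and 6860 stood above 0. Tsc22d3, which encodes the anti-inflammatory protein GILZ (chromosome X, 140539528 to 140600659), had 26.2, 26.6 and 29.8 FPKM in BTBR ASIV, against 11.3, 12.2 and 14.3 FPKM in C57 DMSO (log2 difference 1.08 ± 0.17, adjusted p = 0.00568). Sult1a1, a sulfotransferase (chromosome 7, 126672865 to 126676432), had 11.6, 7.92 and 14.8 FPKM in BTBR ASIV, against 2.38, 2.87 and 4.04 FPKM in C57 DMSO (1.58 ± 0.29, adjusted p = 0.0185). The groups did not overlap for either gene, and Pdk4 (above) was the other call. Fkbp5, a cochaperone of the receptor, had 8.43, 4.90 and 7.69 FPKM in BTBR ASIV, against 2.80, 2.66 and 2.79 FPKM in C57 DMSO without passing (1.07 ± 0.27, adjusted p = 0.0680). Zbtb16 (0.83 ± 0.21) and the kinase Sgk1 (0.96 ± 0.35) did not pass either, and the receptor gene Nr3c1 stood at -0.34 ± 0.11 (adjusted p = 0.131). BTBR DMSO libraries averaged 33.4 ± 9.86 FPKM for Tsc22d3 and 7.61 FPKM for Fkbp5, and C57 ASIV libraries 14.1 ± 0.582 and 2.89 FPKM. Tsc22d3 was called under every setting tried. The Sult1a1 call was lost without single libraries, at the highest without C57 DMSO replicate 1 (adjusted p = 0.0960).

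The activated receptor binds palindromes built from the half-site AGAACA. Promoter windows of 300 bases around RefSeq gene starts (GRCm38.p6) were present for 10 of the 12 genes, and the half-site was found on either strand for 3 of them, Sgk1, Tsc22d3 and Sult1a1. By window it was found in 5 of the 20 windows of these genes and in 6233 of 32851 windows in all (19.0%). The palindrome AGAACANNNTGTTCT was found in the window of Sgk1 and in 0.00913% of all windows. The lines below give 80 bases around each match, 5′ to 3′ on the strand of the gene, with the match in capitals.
Sgk1 (chr10:21993668-21993747, plus strand): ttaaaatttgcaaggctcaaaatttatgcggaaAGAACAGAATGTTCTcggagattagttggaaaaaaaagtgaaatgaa
Tsc22d3 (chrX:140600665-140600744, minus strand): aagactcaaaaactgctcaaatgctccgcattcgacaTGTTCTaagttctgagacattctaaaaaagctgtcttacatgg
Sult1a1 (chr7:126676410-126676489, minus strand): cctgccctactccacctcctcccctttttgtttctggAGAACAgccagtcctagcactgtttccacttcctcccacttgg

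A match describes the letters of the window and does not show a bound site.

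Cholesterol synthesis was the list with the most calls in the lower direction. Of 19 genes tested 4 were lower and none higher, where 1.24% of all genes were called lower. All 19 log2 differences were below 0, and the median was -0.46 (-0.47 to -0.41 over the scalings). Srebf2, the transcription factor that switches the pathway on, had 35.1, 39.1 and 31.0 FPKM in BTBR ASIV, against 47.4, 51.2 and 48.7 FPKM in C57 DMSO (log2 difference -0.48 ± 0.09, adjusted p = 0.0188). Insig1, which holds its activation back in the endoplasmic reticulum, had 20.1, 22.1 and 14.9 FPKM in BTBR ASIV, against 28.1, 33.1 and 29.3 FPKM in C57 DMSO (-0.65 ± 0.13, adjusted p = 0.0215). Nsdhl, an enzyme late in the pathway, stood at -0.61 ± 0.12 (adjusted p = 0.0203). The groups did not overlap for these 3 genes. Hmgcs1, an enzyme at its start, was not called (-0.62 ± 0.20, adjusted p = 0.130). The summed FPKM of the list was 187.6 to 266.7 in BTBR ASIV, against 306.3 to 322.6 in C57 DMSO. Leaving out BTBR ASIV replicate 3 or any C57 DMSO library ended the calls of Srebf2, Insig1 and Nsdhl, and leaving out BTBR ASIV replicate 1 ended those of Srebf2 and Nsdhl. The highest adjusted p were 0.101 for Srebf2 and 0.114 for Insig1, both without C57 DMSO replicate 2, and 0.0917 for Nsdhl, without BTBR ASIV replicate 3.

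Cytosolic ribosomal proteins had a median of 0.29 over 79 genes (0.28 to 0.35 over the scalings), with 69 above 0, 6 called higher and none lower. Of all 13586 genes 6860 stood above 0 and 0.942% were called higher. Rplp1, a stalk protein of the large subunit, had 1598, 1336 and 1784 FPKM in BTBR ASIV, against 885.2, 872.1 and 1010 FPKM in C57 DMSO (log2 difference 0.76 ± 0.14, adjusted p = 0.0169). Rpl37a (0.71 ± 0.13), Rps20 (0.65 ± 0.14), Rpl11 (0.56 ± 0.12), Rpl17 (0.70 ± 0.16) and Rpl26 (0.50 ± 0.12) were the others. BTBR DMSO libraries were higher still for Rplp1 (1910 ± 315 FPKM) and Rpl37a (230.0 ± 32.2 FPKM). Many genes of the list have processed copies that were tested, and summed with them Rpl37a (0.71, adjusted p = 0.00959), Rps20 (0.66, 0.0254), Rpl11 (0.57, 0.0197) and Rpl26 (0.51, 0.0344) were called by voom and Rpl17 (0.31, 0.319) was not. The calls of Rplp1, Rpl37a, Rps20 and Rpl11 were lost without single libraries (adjusted p up to 0.0923, 0.0857, 0.156 and 0.140), each of them without BTBR ASIV replicate 3 and without C57 DMSO replicates 1 and 2. Rps20 and Rpl11 were also lost without C57 DMSO replicate 3, and these and Rplp1 without BTBR ASIV replicate 1. The calls of Rpl17 and Rpl26 were lost at up to 0.179, without BTBR ASIV replicate 3, and 0.210, without C57 DMSO replicate 1. Both were also lost without the filter and without trend and robust options, and Rpl26 with a pseudocount of 0.1. The 2 genes that stood lowest in the list, Rpl29 (-3.18 ± 0.96, adjusted p = 0.125) and Rpl14 (-0.81 ± 0.33, adjusted p = 0.232), were not called. Summed with their copies, Rpl29 stood at -0.62 (voom, adjusted p = 0.2205) and Rpl14 at 0.37 (0.168).

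In several other lists of 14 to 33 genes no member passed, and at 2.18% of all genes called such a count of 0 is near the background. None of 22 immediate early genes (median -0.10), 19 circadian clock genes (0.18), 22 NRF2 pathway genes (0.05), 14 MHC class I genes (0.12), 17 interferon-response genes (0.05), 33 spliceosome core genes (0.00), 33 proteasome subunits (0.02) and 18 subunits of the vacuolar proton pump (-0.12) passed. The clock repressor Nr1d1 had 31.4, 24.97 and 22.8 FPKM in BTBR ASIV, against 35.7, 34.0 and 35.1 FPKM in C57 DMSO (log2 difference -0.40, 95% interval -0.65 to -0.16, adjusted p = 0.0901), and BTBR DMSO libraries averaged 9.96 ± 0.806. The activity gene Npas4 stood at -0.81 with an interval of -1.95 to 0.34. Hspa1a, an inducible heat shock protein, was the 1 call among 23 heat shock and stress genes of the endoplasmic reticulum (-0.73 ± 0.14, adjusted p = 0.0212, lost without single libraries at up to 0.114). Of the known strain loci, Itpr3 (-0.08 ± 0.13), Gabra2 (0.21 ± 0.24) and Glo1 (0.01 ± 0.11) were tested and not called.

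**Figure D5:**
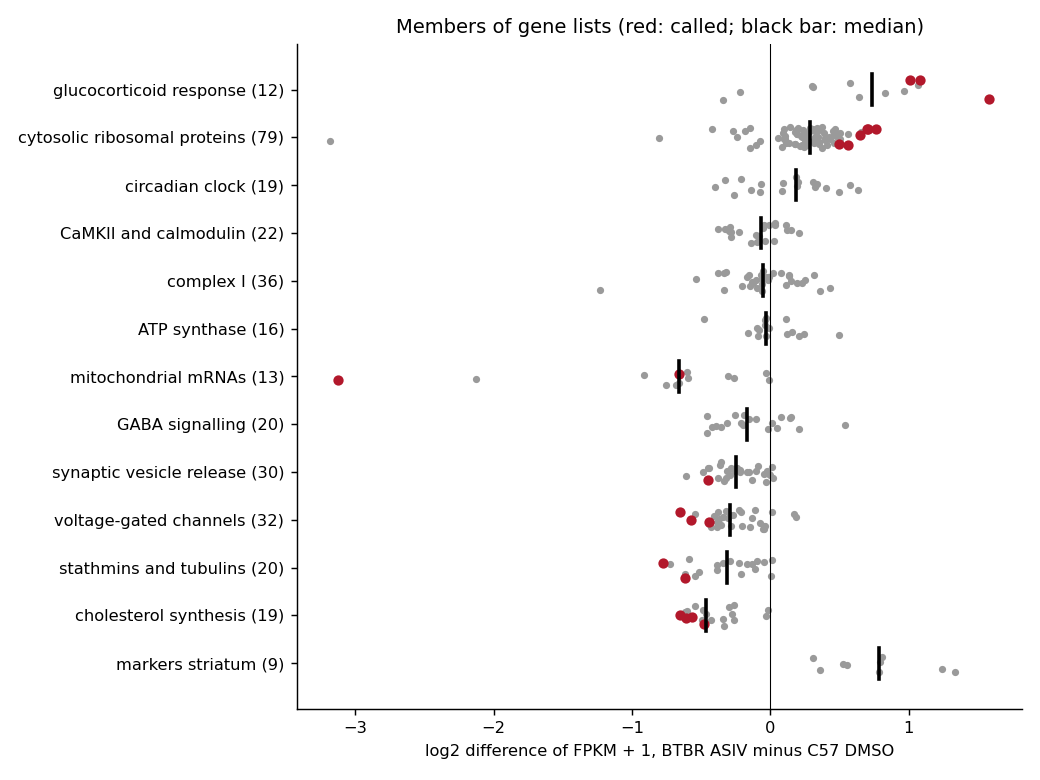
Log2 difference of FPKM + 1, BTBR ASIV minus C57 DMSO, for each tested member of 13 gene lists (number tested in brackets). Red points were called, and the black bar is the list's median, which runs from -0.66 for the mitochondrial mRNAs to 0.79 for the striatal markers, of which none was called.

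Neuropeptides gave a call in each direction among 19 genes, and the neuronal marker lists held 0 or 1 call each, where 2.18% of all genes were called. Of all 13586 genes 6860 stood above 0. Tac2, the precursor of neurokinin B, had 6.77, 7.34 and 9.14 FPKM in BTBR ASIV, against 4.24, 4.33 and 4.42 FPKM in C57 DMSO (log2 difference 0.71 ± 0.10, adjusted p = 0.00225), and was called under every setting tried. Cort is given above, and Sst, the related peptide somatostatin, stood at 0.32 without a call. Of 12 upper layer neuron markers Lamp5 was lower (-0.71 ± 0.14, adjusted p = 0.0192), 3 stood above 0, and the median was -0.26. The summed FPKM of the upper layer markers, Lamp5 among them, was 127.4 to 165.8 in BTBR ASIV, against 175.5 to 191.8 in C57 DMSO. Lamp5 alone had 30.5 to 39.1 FPKM in BTBR ASIV and 54.4 to 57.3 in C57 DMSO, and without it the summed ranges overlap. None of 12 deep layer markers (median 0.18) passed. Of 18 interneuron markers Kcnc1 alone was called, in the lower direction, while 15 of the 18 stood above 0 and the median was 0.22. The summed FPKM of the deep layer markers and of the interneuron markers overlapped between the groups. Adcyap1, the peptide PACAP, had 3.51, 10.8 and 4.14 FPKM in BTBR ASIV, against 12.9, 14.3 and 9.22 FPKM in C57 DMSO, and was not called (adjusted p = 0.207). The Lamp5 call was lost at an adjusted p of up to 0.0837 without C57 DMSO replicate 1.

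Glial and vascular marker lists held 0 or 1 call each, where 2.18% of all genes were called. Gjb6, the astrocyte gap junction protein connexin 30, was the 1 call of 14 astrocyte markers, with 33.5, 34.8 and 40.2 FPKM in BTBR ASIV, against 16.7, 20.1 and 20.2 FPKM in C57 DMSO (log2 difference 0.90 ± 0.20, adjusted p = 0.0420). Slc2a1, the glucose transporter of the blood-brain barrier, was the 1 call of 13 endothelial markers, with 71.7, 63.9 and 75.7 FPKM in BTBR ASIV, against 32.6, 33.1 and 41.6 FPKM in C57 DMSO (0.96 ± 0.21, adjusted p = 0.0365). Itgam, the integrin CD11b, was the 1 call of 17 microglial markers (-0.64 ± 0.12, adjusted p = 0.0170) at 0.356 to 0.660 FPKM in BTBR ASIV and 1.32 to 1.47 in C57 DMSO, and 68.7% of its exon length is shared with another annotated gene of the same strand. None of 14 oligodendrocyte, 10 precursor and 9 mural markers passed. The list medians were -0.03 for astrocytes (0.03 under TPM scaling), 0.10 for endothelium and -0.12 for microglia. The summed FPKM of the endothelial markers, Slc2a1 among them, was 209.9 to 269.2 in BTBR ASIV, against 175.2 to 207.1 in C57 DMSO. Without Slc2a1 the summed ranges overlap. The sums of the glial lists and of the mural list overlapped between the groups. The calls of Gjb6, Slc2a1 and Itgam were lost without single libraries, at up to 0.196, 0.162 and 0.0826, each without C57 DMSO replicate 1.

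Markers of tissue beside the mPFC varied between libraries within both groups. The 9 striatal markers summed to 74.8 to 505.3 FPKM in BTBR ASIV, against 95.2 to 256.1 in C57 DMSO, all 9 had log2 differences above 0, and none was called. The dopamine receptor gene Drd2 had 9.63, 0.651 and 18.9 FPKM in BTBR ASIV, against 0.589, 0.788 and 6.64 FPKM in C57 DMSO. The choroid plexus gene Ttr had 9.13, 1.86 and 0.577 FPKM in BTBR ASIV, against 0.220, 0.349 and 0.606 FPKM in C57 DMSO. Summed haemoglobin and other blood markers came to 38.9 to 99.3 FPKM in BTBR ASIV, against 87.5 to 170.2 in C57 DMSO, and meningeal markers to 316.8 to 541.6 against 237.4 to 385.3. Their part in the differences of other genes was not tested.

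By position, chromosome 7 had the largest share of called genes among the autosomes, 45 of 1027 (4.38%), of which 18 were higher and 27 lower. Chromosome 18 had 3.45% and chromosome 4 had 3.03%, beside 2.18% of all genes. On chromosome 7 all calls lay below 130 Mb, with 8 of 75 genes called between 30 and 40 Mb. Protein-coding genes had 1.89% called, 86 higher and 144 lower, and long noncoding genes 2.89%, 4 higher and 18 lower. Of the 3393 genes with the shortest exon length 3.24% were called, 68 higher and 42 lower. Of the 3392 with the longest 1.65% were called, 16 higher and 40 lower. Among protein-coding genes alone, higher calls did not outnumber lower calls in the short genes. Higher calls were still more frequent in the short genes than in the long ones. The 3040 shortest protein-coding genes had 2.47% called, 35 higher and 40 lower. The 3035 longest had 1.48% called, 12 higher and 33 lower. Snhg5, a host RNA of small nucleolar RNAs, was the noncoding gene with a symbol of its own among the higher ones (0.78 ± 0.14, adjusted p = 0.0102), with 4.99, 3.70 and 5.53 FPKM in BTBR ASIV, against 1.80, 2.53 and 2.70 FPKM in C57 DMSO. The pseudogene entry AC151284.2 was lower (-1.60 ± 0.33, adjusted p = 0.0329). Both calls were lost without single libraries, at up to 0.0603 and 0.153, each without C57 DMSO replicate 1. That of AC151284.2 was also lost with a pseudocount of 0.1 and with only the 6 libraries.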

How the data were processed

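Total RNA was isolated with Trizol, per the labels. The deposited table holds FPKM computed by the authors, 1 column per library and 0 other columns; HISAT2 2.0.5 and mm10 are named in the submitters' processing notes, while no source used here names the counter, annotation, strand or filter. Identifiers were matched to GENCODE M21 (17265 of 17283). FPKM times exon length gave whole multiples of 1 step for 97.6 to 98.0% of values under 50 fragments (within 0.02), which yields the depth, 16166322 to 18660038 fragments. Exons of unequal annotation would shift it, and intervals and SE cover the spread between libraries only.

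Values were tested as log2(FPKM + 1), which understates changes of low genes, with limma 3.58.1 in R 4.3.3 (4 group means, 12 libraries, 8 residual degrees of freedom, eBayes with trend and robust), called at an adjusted p under 0.05. A log2 difference is BTBR ASIV minus C57 DMSO with its SE. The filter kept Sgcz (1.0003 FPKM in the library that decided) and Cyp39a1 (1.0005) and left out Gm43012 (0.99968) and Spag6l (0.99916). The fit was tested on simulated data. Copies were matched with BLAST 2.17.0; voom ran on recovered fragments. Python 3.11.15, pandas 2.3.3, numpy 2.4.6, Biopython 1.88 and matplotlib 3.10.9 did the rest.

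The comparison, the gene lists and the alternatives were chosen with earlier results of these data known. Named are the 15 higher and 15 lower called nuclear protein-coding genes of largest log2 difference without overlap, up to 4 per direction of noncoding or pseudogene entries (symbols of the Gm, Rik and -ps kind left out of both), up to 4 called members per list by p or else the 1 or 2 of smallest p, and always the CaMKII genes, mitochondrial mRNAs and strain loci. Copies, Fkbp5, Zbtb16, Sgk1, Nr3c1, Hmgcs1, Rpl29, Rpl14, Rpl17, Rpl26, Sst and Adcyap1 were added after their values were seen. Some members of the lists are counted but not reported here by name. Lists are described by counts and medians, with no test. Alternatives covered scaling, pseudocount (0.1), filter (none, FPKM of at least 5), libraries, weights, replicate block, voom and, added after seeing the data, gene copies.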

Additional observations from a re-analysis of the deposited data

How the results depend on the processing

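Of 79 named genes that were called, 30 were called under all alternatives that could be fitted for them, at most 21 each, 28 lost the call only when 1 library was left out, and 21 under another alternative. Their direction held except for Eif3j1, which stood at 0.096 once summed with its copy, since that setting adds the fragments of Eif3j2. Of 87 not called, 38 were called under at least 1 alternative. The count of called genes (296, 128 higher and 168 lower) was 560 (236 and 324) with only the 6 libraries, 695 (323 and 372) without the BTBR DMSO group and 885 (396 and 489) with array weights. Of the 296 genes, 273, 296 and 296 were called again in these fits. Leaving out 1 library gave 99 to 394 called (50 to 167 higher, 49 to 227 lower) and 54 to 90 by at least 2-fold. The 2-fold count (70) was 112 with a pseudocount of 0.1, 129 with voom and 33 without gene copies, which also left 79 higher. The pseudocount acts on genes of low FPKM, and the last setting tests fewer genes. For the other moves the cause was not tested. TPM scaling moved the median of all genes to 0.0588 and the share of higher calls to 63%, against 43.2%, and without gene copies that share was 34.5%, or 33.8% with copies summed. The difference in the share of the mitochondrial mRNAs in all FPKM was -3.444 percentage points of FPKM, -1.497 of fragments, and -3.747 to -3.212 when 1 library was left out.

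Libraries of equal number in the 2 groups deviated together with r of 0.013, 0.135 and 0.156, so the numbers were not taken as pairs. With the replicate block 342 genes were called, 170 higher and 172 lower, with 260 of the 296 among them, and 49.7% were higher.

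With 3 libraries a group, genes near 1 FPKM rest on few fragments: 1 fragment on 1 kb equals 0.0536 to 0.0619 FPKM. The greater spread of the BTBR libraries and the shared estimate of the spread limit what a missed threshold can say.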

Other observations

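The genes in this section were chosen after their values were seen. They come from no list and carry no test as a group. Sox11, a transcription factor of young neurons, had 6.35, 4.71 and 6.21 FPKM in BTBR ASIV, against 2.06, 2.33 and 2.70 FPKM in C57 DMSO (log2 difference 1.00 ± 0.12, adjusted p = 0.00063 in limma). Cd24a, a surface glycoprotein, had 6.90, 6.59 and 6.37 FPKM in BTBR ASIV, against 2.97, 3.16 and 2.55 FPKM in C57 DMSO (0.97 ± 0.10), and BTBR DMSO libraries averaged 3.62 FPKM. Dpysl5, a growth cone protein, stood at 0.82 ± 0.12 and Ccnd2, a cyclin of G1, at 0.63 ± 0.11. Dcx, a marker of migrating neurons, was not called (0.37 ± 0.19), and Igfbpl1 is given above. Sox11, Cd24a and Dpysl5 were called under every setting tried, and Ccnd2 was lost at up to 0.0717, without C57 DMSO replicate 2.

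Mdm2 (0.38 ± 0.09), Fas (0.74 ± 0.15), Perp (0.56 ± 0.10) and Trp53inp1 (0.74 ± 0.15) were called higher. Fas had 1.48, 1.63 and 2.10 FPKM in BTBR ASIV, against 0.506, 0.574 and 0.820 FPKM in C57 DMSO, with a mean of 0.565 FPKM in BTBR DMSO. Leaving out single libraries ended the calls of Mdm2, Fas, Perp and Trp53inp1, at adjusted p of up to 0.162, 0.118, 0.0841 and 0.125, for Perp without C57 DMSO replicate 2 and for the others without replicate 1. Mdm2 was also lost under scaling without mitochondrial genes, with the replicate block and without trend and robust options. Fas was also lost with a pseudocount of 0.1. The basement membrane collagens Col4a1 (0.54 ± 0.12) and Col4a2 (0.55 ± 0.12) were called higher and lost at up to 0.142 and 0.181, both without C57 DMSO replicate 2. Col4a2 was also lost without the filter, under scaling without mitochondrial genes and without trend and robust options. Hapln4, a link protein of perineuronal nets, had 20.9, 20.5 and 16.6 FPKM in BTBR ASIV, against 40.1, 40.3 and 32.04 FPKM in C57 DMSO (-0.92 ± 0.14, adjusted p = 0.00391 in limma). Mfn2, a protein of mitochondrial fusion, stood at -0.54 ± 0.10 and was lost at up to 0.0921, without C57 DMSO replicate 1.

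Some genes with copies differed between BTBR ASIV libraries. Rpl29 had 2.70, 2.85 and 77.7 FPKM in BTBR ASIV, against 90.9, 87.2 and 102.6 FPKM in C57 DMSO. Rpl14, like Rpl29 on chromosome 9, had 37.6, 25.8 and 78.6 FPKM in BTBR ASIV, against 73.6, 74.4 and 77.6 FPKM in C57 DMSO. In both genes BTBR ASIV replicate 3 alone was close to C57 DMSO, while at Pttg1 it had 0.324 FPKM, beside 0.326 and 0.221 in replicates 1 and 2. The BTBR ASIV means of Rpl29 and Rpl14 therefore rest on unlike libraries, and the cause was not tested. For Ndufs5 that library was the lowest of the 3 (15.7 FPKM).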
